A study of Homo sapiens with 6 samples.

Results

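A set of 7 genes around the bile acid receptor FXR were followed in Caco-2 cells, an established line from a human colorectal cancer that can differentiate towards an enterocyte-like state. They were chosen by gene symbol, but with earlier results of these data known. All 7 of the 7 symbols were found among the 27685 genes of the count table. Members were the receptor gene NR1H4, the repressor gene NR0B2 and the transporter genes SLC51A, SLC51B and SLC10A2. The others were the hormone gene FGF19 and the conjugating enzyme gene BAAT. PolyA RNA was sequenced from cells labelled as a FABP1 knockdown, which carried a construct antisense to FABP1, and from mock-transfected cells that carried the empty vector pcDNA3 and are labelled WT. Each group had 3 libraries, named here by the numbers 2, 3 and 4 of the count columns. All cells were grown in the same serum-containing medium with vitamins and non-essential amino acids, and no bile acid treatment is named in the labels. How many transfected lines or clones stand behind either group is not in the labels, and neither is whether its libraries were grown as separate cultures. P-values therefore cover the variation among these libraries only, possibly technical variation, and a difference between lines cannot be told apart from an effect of the construct.

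Bile acids are made from cholesterol in the liver, joined to glycine or taurine by the enzyme that BAAT encodes, and secreted into the gut. In the ileum they enter the enterocyte through the apical sodium-dependent carrier SLC10A2, cross the cytosol bound to FABP6 and leave through the basolateral transporter OST, which needs an alpha subunit (SLC51A) and a beta subunit (SLC51B). FXR senses them in the nucleus as a partner of RXR, and is known to induce NR0B2, SLC51A, SLC51B, FABP6 and FGF19. NR0B2 encodes SHP, a receptor-like repressor without a DNA-binding domain, and FGF19 is a hormone that lowers bile acid synthesis in the liver through the receptor FGFR4 and its partner KLB.

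Upstream sequence was read from RefSeq for the genes whose levels are described below, since FXR and its RXR partner are known to bind an inverted repeat spaced by a single base (IR-1). The 250 bases before the start were available for 5 of the 7 genes, NR0B2 and FGF19 being without an entry. The motif searched was the half-site AGGTCA, any base, and the inverted half-site TGACCT, with up to 2 mismatches and on both strands. It was found in the window of SLC51B and in no window of the other 4 genes. It was present in 0.945% of 35116 upstream windows of the same length. The SLC51B window is shown on the plus strand of GRCh38.p14 (chr15:65045137-65045386), with the match in capitals.
SLC51B: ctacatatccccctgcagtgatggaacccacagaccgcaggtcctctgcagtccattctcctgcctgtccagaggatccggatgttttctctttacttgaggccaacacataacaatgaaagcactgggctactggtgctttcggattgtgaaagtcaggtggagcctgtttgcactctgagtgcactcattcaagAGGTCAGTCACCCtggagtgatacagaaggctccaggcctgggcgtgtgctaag
The match lay 54 to 42 bases before the start and differed from the motif by G9C and T13C, counted from 1 at the 5′ end of the motif. Another motif, the direct repeat of AGGTCA around any base, bound by HNF4 factors among others and sharing its half-site with IR-1, was found in none of these windows and in 2.57% of all upstream windows. A match of letters does not show that a factor binds there.

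Total counts were 41768687 to 55153051 in the FABP1 antisense libraries and 40351394 to 57979037 in the vector control libraries. A floor of 3 counts summed over the libraries of a group equals 0.0211 CPM for the antisense group and 0.0212 CPM for the vector control, CPM being counts scaled to a common library size. The targeted gene, FABP1, a carrier of fatty acids in the cytosol, stood at 134, 147 and 122 CPM in the antisense libraries. In the vector control it stood at 138, 102 and 121 CPM, so the groups overlapped and the FABP1 counts were not reduced. The log2 fold change of FABP1 was 0.16 (SE 0.12, 95% interval -0.10 to 0.42), with a Benjamini-Hochberg adjusted p = 0.268 by edgeR's quasi-likelihood test. Since the strand setting of the counting was not given, reads of the construct may not be separable from those of FABP1. The name antisense thus states a label, and each rise or fall below compares the group so labelled with the vector control. Of 14640 genes tested over the whole table, 55% differed at an adjusted p under 0.05, 27.7% higher and 27.3% lower, so a call for a single gene is common in this comparison. Likewise the groups did not overlap for 62.7% of them, with the antisense libraries higher in 31.7% and lower in 31%. Of the 7 genes, 4 entered the test and all 4 were called, 3 higher and 1 lower, of which NR1H4 entered through the antisense libraries alone and so could only be higher, and 5 of the 7 had groups that did not overlap.

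Intestinal epithelial markers were present in both groups. SI and KRT20, genes of mature epithelium, were much higher in the antisense libraries, while VIL1 was slightly lower. All 10 markers on the list passed the filter on low counts, with a summed level of 15253 to 17944 CPM in the antisense libraries and 13104 to 15999 CPM in the vector control, and 7 rose and 1 fell. These sums rest mostly on the keratin genes KRT8 and KRT18. The marker that fell was VIL1 (-0.20), while EPCAM (-0.08) and KRT8 (0.12) did not pass and ALPI rose by 0.45. Over all tested genes 27.7% rose and 27.3% fell, which is the background for the other marker lists too. SI, the brush-border enzyme sucrase-isomaltase, had 19.5, 24.1 and 23.4 CPM in the antisense libraries and 0.330, 0.343 and 0.0932 CPM in the vector control libraries. The groups were far apart, with a log2 fold change of 6.41 (SE 0.25). KRT20, a keratin, and CDH17, an intestinal cadherin, rose by 3.17 and 1.32. These rises run beside those of NR1H4, NR0B2 and SLC51B, and their part in them was not tested.

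Among markers of other cells, PTPRC of leukocytes, CDH5, KDR and TEK of endothelium, and COL1A2 and DCN of fibroblasts had 0 counts in all 6 libraries. Other genes of these lists were expressed and differed. On the fibroblast list LUM, the proteoglycan lumican, averaged 18.1 ± 1.87 CPM in the antisense libraries and 0.133 ± 0.0873 CPM in the vector control (log2 fold change 7.12; SD, n = 3 each). PDGFRA, a growth factor receptor, averaged 0.386 ± 0.285 CPM in the antisense libraries and 22.7 ± 3.49 CPM in the vector control (-5.78; SD, n = 3 each), PDGFRB fell by 1.13 and COL3A1 rose by 0.69. The list summed to 31.5 to 35.6 CPM in the antisense libraries and 39.4 to 42.3 CPM in the vector control. On the leukocyte list CSF1R (3.60) and LYZ (1.04) rose and CD14 (-2.38) fell, and the sums were 30.4 to 31.5 CPM in the antisense libraries and 24.4 to 26.0 CPM in the vector control. On the endothelial list VWF (2.85) and PECAM1 (1.01) rose, and the sums were 2.39 to 2.67 CPM in the antisense libraries and 0.833 to 1.42 CPM in the vector control. The hepatocyte list, which matters because BAAT, NR1H4 and NR0B2 are also liver genes, summed to 1393 to 1541 CPM in the antisense libraries and 2351 to 2624 CPM in the vector control. Of its 9 tested genes 4 rose, the urea cycle gene CPS1 (4.04) furthest, 2 of them having passed the filter through the antisense libraries alone, as VWF did, and 3 fell, among them the plasma protein genes TTR (-1.49) and SERPINA1 (-0.86). The part of these shifts in the results below was not tested.

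**Figure D1:**
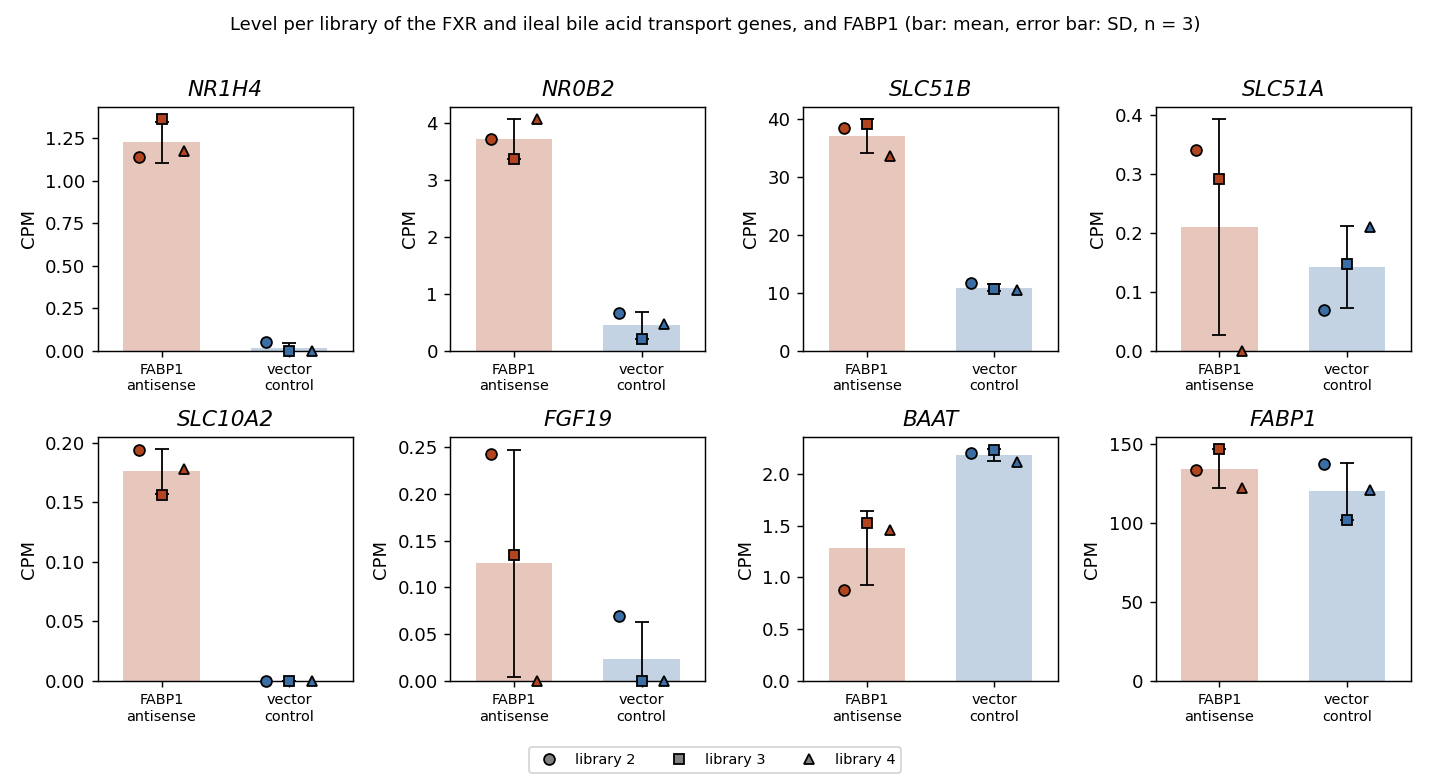
Level of the 7 genes and of FABP1 in CPM (scaled counts, y axis from 0), with each symbol a library, bars the mean and error bars the SD of 3 libraries, and a separate scale for each gene. The antisense libraries lie above all vector control libraries for NR1H4, NR0B2, SLC51B and SLC10A2 and below them for BAAT, while SLC51A and FGF19 have 0 counts in antisense library 4.

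NR1H4 and NR0B2, the receptor and the repressor it induces, were both higher in the antisense libraries. NR1H4 (gene ID 9971) had 47, 61 and 66 counts in antisense libraries 2, 3 and 4, and 3, 0 and 0 counts in vector control libraries 2, 3 and 4. The antisense libraries were close to each other, and the vector control was at or near 0. In CPM these were 1.14, 1.36 and 1.17 in the antisense libraries (mean 1.23 ± 0.120, SD, n = 3) and 0.0521, 0 and 0 in the vector control. With 3 counts in the vector control group, the ratio of the summed counts was 57.7 (95% exact counting interval 19.4 to 282, for counting error only). The fitted log2 fold change was 5.71 (SE 0.62, adjusted p = 9.01e-05 by edgeR's quasi-likelihood test). Without vector control library 2, which held all 3 counts, the fitted value was 8.79 and depends on the prior count. In bulk RNA, more cells with the transcript and more transcript per cell cannot be told apart.

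NR0B2 (gene ID 8431) had 3.72, 3.35 and 4.07 CPM in the antisense libraries and 0.660, 0.196 and 0.466 CPM in the vector control libraries. The lowest antisense library was above the highest vector control library, and within the vector control the levels differed by more than those within the antisense group in proportion. Its log2 fold change was 3.03 (SE 0.34, 95% interval 2.26 to 3.80, adjusted p = 0.000103 by edgeR's quasi-likelihood test), an 8.16-fold rise. A rise at least this large was called in 2.76% of tested genes. NR0B2 overlaps NUDC on the other strand in GENCODE 29, and the strand setting of the counting was not given. NUDC, a gene of nuclear migration and cell division, fell by 0.27 on the log2 scale, opposite to NR0B2. NR1H4 entered the test through the antisense libraries alone, since 0 of 3 vector control libraries reached the filter of 0.227 CPM. For NR0B2 the filter was reached in 3 antisense and 2 vector control libraries.

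The subunits of the basolateral bile acid exporter were at very different levels. SLC51B (gene ID 123264), the beta subunit, had 38.5, 39.0 and 33.6 CPM in the antisense libraries and 11.6, 10.6 and 10.4 CPM in the vector control libraries. The groups were far apart relative to the spread within either. This was a log2 fold change of 1.77 (SE 0.09, 95% interval 1.56 to 1.98, adjusted p = 9.68e-07 by edgeR's quasi-likelihood test), or 3.40-fold. A rise at least this large was called in 5.35% of tested genes, and SLC51B passed the filter in all 6 libraries. RASL12, which encodes a small GTPase-like protein and overlaps SLC51B on the other strand in GENCODE 29, fell by 0.94.

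SLC51A (gene ID 200931), the alpha subunit without which the exporter is not formed, was close to the limit of detection. It had 14, 13 and 0 counts in antisense libraries 2, 3 and 4 and 4, 6 and 9 counts in vector control libraries 2, 3 and 4, so the groups overlapped. Antisense library 4 held 0 counts although it had the largest total of its group, where 17.7 counts correspond to the rate of antisense libraries 2 and 3. The ratio of summed counts was 1.41 (95% exact counting interval 0.757 to 2.69, for counting error only). SLC51A did not pass the filter. In the fit without a filter its log2 fold change was 0.54 (adjusted p = 0.717 by edgeR's quasi-likelihood test), and without antisense library 4 it was 1.17 (adjusted p = 0.146). A change of SLC51A was not detectable at this depth. PCYT1A, an enzyme gene of phosphatidylcholine synthesis, overlaps SLC51A on the other strand in GENCODE 29, so reads of the pair may not be separable.

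SLC10A2 (gene ID 6555), the apical carrier by which the ileum takes up bile acids, was detected in the antisense libraries alone. It had 8, 7 and 10 counts in the antisense libraries and 0, 0 and 0 counts in the vector control libraries. The summed antisense level was at least 6.25-fold higher by the exact 95% counting interval, and 8.29 times the floor of 3 counts over the vector control group. These counts were below the filter. In the fit without a filter it passed edgeR's quasi-likelihood test (adjusted p = 0.0104), and it also passed DESeq2 (adjusted p = 0.00458). Its level of 0.176 ± 0.0189 CPM (SD, n = 3) remained low beside that of the basolateral subunit SLC51B.

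FGF19 (gene ID 9965), the hormone by which the ileum signals to the liver, was near 0 in both groups. It had 10, 6 and 0 counts in the antisense libraries and 4, 0 and 0 counts in the vector control libraries, and the groups overlapped. As for SLC51A, antisense library 4 was at 0, where 10.5 counts correspond to the rate of antisense libraries 2 and 3. FGF19 did not pass the filter, and in the fit without one its log2 fold change was 2.11 (adjusted p = 0.315 by edgeR's quasi-likelihood test). Its receptor gene FGFR4 was abundant, at 553 ± 44.0 CPM in the antisense libraries and 544 ± 64.8 CPM in the vector control (SD, n = 3 each). FGFR4 did not pass the test (log2 fold change 0.03, 95% interval -0.19 to 0.25). The receptor partner KLB stood at 0.474 ± 0.136 CPM in the antisense libraries and 0.490 ± 0.130 CPM in the vector control and did not pass either, with a wide interval of -0.89 to 0.76.

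BAAT (gene ID 570), the enzyme that joins bile acids to glycine or taurine, was the member that fell. It had 0.874, 1.52 and 1.46 CPM in the antisense libraries and 2.21, 2.23 and 2.12 CPM in the vector control libraries. The groups did not overlap, and antisense library 2 was well below the other two. This was a log2 fold change of -0.76 (SE 0.24, 95% interval -1.31 to -0.21, adjusted p = 0.0252 by edgeR's quasi-likelihood test). A fall at least this large was called in 8.78% of tested genes. The call was lost without antisense library 2 (log2 fold change -0.55, adjusted p = 0.0607) and without vector control library 2 (-0.76, adjusted p = 0.0636).

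Scaled to transcript length, the order of the genes was not the same in both groups. Levels per length are CPM per kilobase of the longest GENCODE 29 transcript that carries a RefSeq accession of the gene. In the antisense libraries SLC51B was highest at 39.4 ± 3.17, followed by NR0B2 at 3.21 ± 0.310 and NR1H4 at 0.425 ± 0.0418 CPM per kilobase (SD, n = 3). BAAT was next at 0.259 to 0.450 CPM per kilobase, and NR1H4 and BAAT overlapped. SLC51A, FGF19 and SLC10A2 averaged 0.144, 0.0514 and 0.0466 CPM per kilobase in that order. SLC51A lay below BAAT in all libraries, while SLC51A and FGF19 overlapped, as did FGF19 and SLC10A2. In the vector control SLC51B was again highest at 11.6 ± 0.685, but BAAT came next at 0.647 ± 0.0170, above NR0B2 at 0.381 ± 0.202 in all libraries (SD, n = 3). There SLC51A averaged 0.0971 CPM per kilobase, NR1H4 and FGF19 averaged 0.00602 and 0.00946, and SLC10A2 was at 0. SLC51B made up 83.0 to 85.5% of the summed CPM of the 7 genes in the antisense libraries and 78.8 to 80.4% in the vector control.

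The fold changes of the genes were set beside those of their neighbours on the chromosome. The 7 genes lie on 7 chromosomes, and for each the 5 tested genes on either side in the RefSeq order were taken. Over all tested genes 27.7% rose and 27.3% fell, which is the background for the counts of neighbours too. Around NR1H4 on chromosome 12, 9 of 10 neighbours rose, with a median log2 fold change of 0.66 and a range of 0.37 to 1.23, so NR1H4 moved in the direction of its neighbours and beyond their range. Its nearest neighbours SCYL2 and GAS2L3 changed by 0.66 and 0.49. Around NR0B2 on chromosome 1, 8 of 10 neighbours fell and 1 rose, with a median of -0.50, so NR0B2 moved opposite to most of them. SLC51B on chromosome 15 had neighbours with a median of 0.33, of which 6 rose and 1 fell.

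Around BAAT on chromosome 9 the median of the neighbours was -0.24, with 3 lower and 1 higher, and the range of -0.86 to 0.55 included BAAT's own -0.76. The neighbours of SLC51A, SLC10A2 and FGF19 had medians of -0.23, 0.25 and -0.24. Beside FGF19 on chromosome 11, the cyclin gene CCND1 rose by 0.31 and ORAOV1 by 0.27, and FADD on the other side fell by 0.29. In this window MYEOV, named after its value was seen, had a log2 fold change of 5.09 (SE 0.76) from a low level. Its mean was -1.62 on the log2 CPM scale. With such a rise its vector control level lay under the filter of 0.227 CPM, so it could enter the test only as higher.

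**Figure D2:**
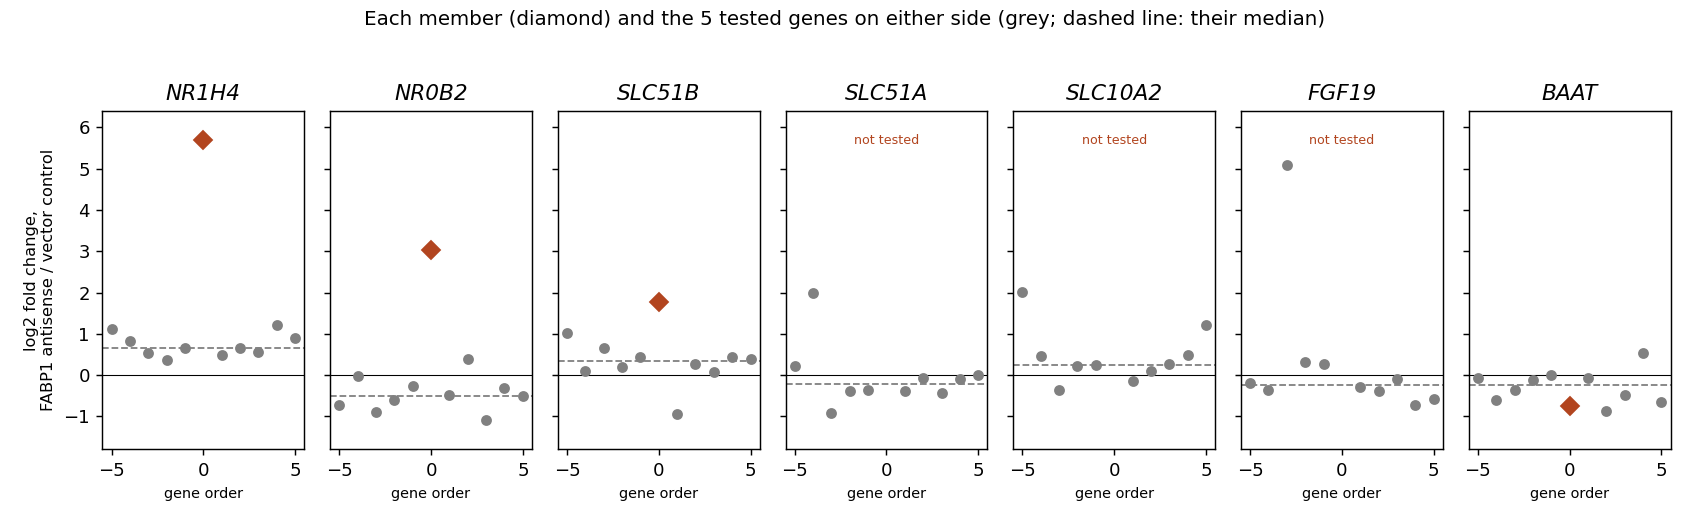
Log2 fold change (y axis, FABP1 antisense over vector control) of each tested member as a diamond and of the 5 tested genes on either side in gene order (x axis) in grey, with the median of the neighbours as a dashed line. NR1H4, NR0B2 and SLC51B stand above their neighbours, BAAT lies within the range of its neighbours, and SLC51A, SLC10A2 and FGF19 were not tested.

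By profile over the 6 libraries, the genes nearest to NR1H4 among 11990 genes whose fitted mean level reached 1 on the log2 CPM scale were ERP27, RYR2, INPP4B, EHF and IGFBP2. The measure was the root mean square distance of log2 levels from the vector control mean, with 0.0212 CPM added, and it was 0.31 to 0.50. ERP27 is a protein of the endoplasmic reticulum, RYR2 a calcium release channel, INPP4B an inositol phosphatase, EHF an epithelial transcription factor and IGFBP2 a binding protein of insulin-like growth factors. Their fitted log2 fold changes were 4.88 to 5.57. Their levels of 7.59 to 53.7 CPM in the antisense libraries were all above the 1.23 CPM of NR1H4. Both the fold changes and the higher levels follow largely from the selection by profile and by fitted mean level.

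The surrounding bile acid pathway was described with 6 lists of 84 genes, of which 65 passed the filter. Of these, 26 rose (40%) and 18 fell (27.7%), against 27.7% and 27.3% over all tested genes, with a median log2 fold change of 0.12 against 0.01. The same shares over all tested genes are the background for the counts of each list below. In the fit without a filter 29 genes of the lists rose and 17 fell. That fit has another background, with 4004 of 19228 tested genes higher and 3958 lower. Genes that passed the filter through the antisense libraries alone, FABP6, NR1I2 and NR1I3, add to the rises by construction, as SLC10A1, which passed through the vector control alone, adds to the falls.

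**Figure D3:**
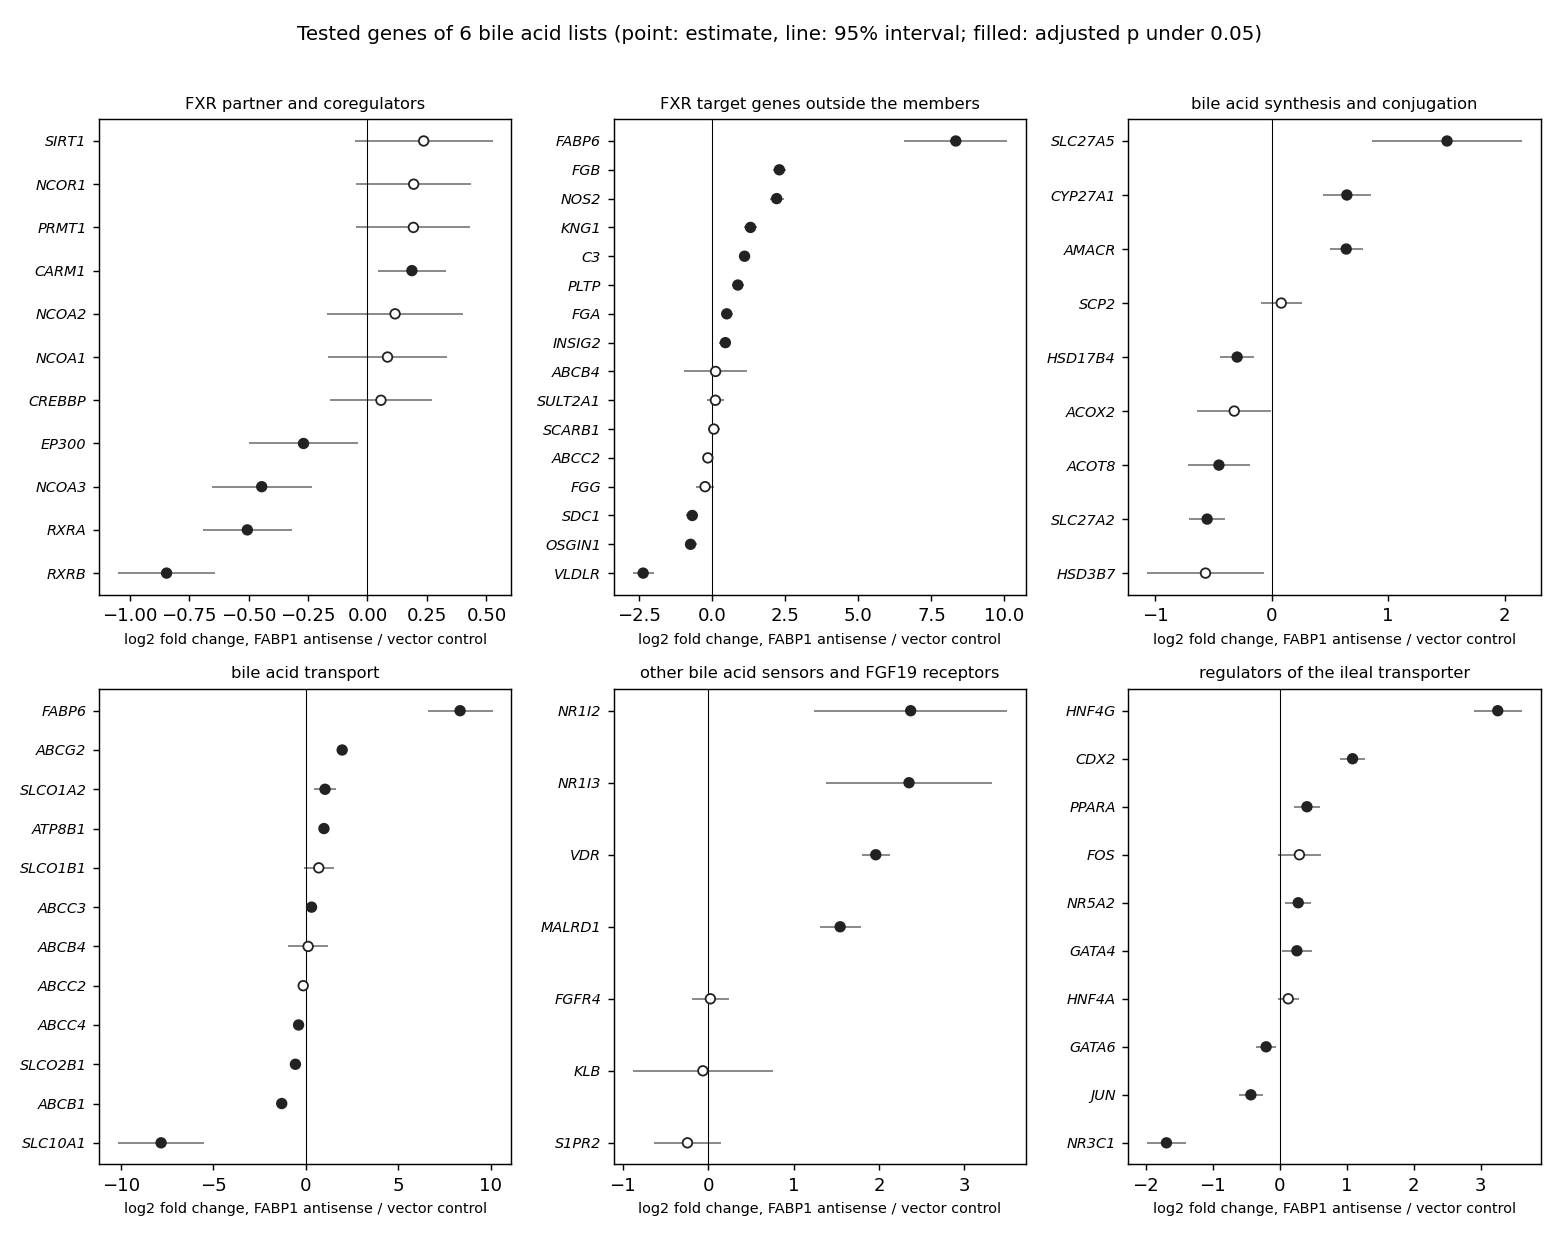
Log2 fold change (x axis, FABP1 antisense over vector control, a separate scale for each panel) with its 95% interval for the tested genes of 6 lists other than 3 that are not shown, filled where the adjusted p was under 0.05. FABP6 and SLC10A1 lie far out because 1 group had 0 counts, and their fitted values depend on the prior count and are no estimate of size.

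FXR binds DNA as a partner of RXR, and the RXR genes fell while NR1H4 rose. RXRA had 84.0, 93.0 and 78.8 CPM in the antisense libraries and 117, 117 and 129 CPM in the vector control libraries. RXRB averaged 31.6 ± 2.28 CPM in the antisense libraries and 56.7 ± 4.70 CPM in the vector control (SD, n = 3 each). The groups did not overlap for either, with log2 fold changes of -0.51 (SE 0.08) and -0.84 (SE 0.09) and adjusted p = 0.000883 and 7.69e-05 by edgeR's quasi-likelihood test. RXRG had 0 counts in all libraries. Of 12 tested genes on the list of partners and coregulators, 4 fell and 2 rose. The other falls were of the coactivator genes NCOA3 (-0.44) and EP300 (-0.27), and the rises included the methyltransferase gene CARM1 (0.19). The calls for EP300 and CARM1 were close to the threshold (adjusted p = 0.0497 and 0.0333).

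Genes described as FXR targets outside the 7 moved in both directions. Of 16 tested, 8 rose and 3 fell, with a median of 0.29, against 27.7% higher and 27.3% lower over all tested genes. FABP6, among the 8, passed the filter through the antisense libraries alone and so could only be higher. FABP6, the ileal bile acid carrier of the cytosol, had 36, 42 and 42 counts in the antisense libraries and 0 in each vector control library, at least 31.8-fold higher by the exact 95% counting interval and 39.8 times the floor of 3 counts over the vector control group. FGB, the fibrinogen beta chain, had 24.8 ± 1.39 CPM in the antisense libraries and 5.04 ± 0.385 CPM in the vector control (4.92-fold; SD, n = 3 each). The other fibrinogen chains moved less, FGA rising by 0.50 on the log2 scale and FGG not passing (-0.24). NOS2, inducible nitric oxide synthase, rose by 2.21 on the log2 scale and KNG1, the kininogen gene, by 1.31. The falls were of the lipoprotein receptor gene VLDLR (-2.36), OSGIN1 (-0.74) and the syndecan gene SDC1 (-0.68). ABCB11, the canalicular bile salt pump and a classic hepatic FXR target, had 0 counts in the antisense libraries and 3, 0 and 3 in the vector control.

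Of the 17 listed genes of bile acid synthesis, some were at 0, some were detected below the filter and 9 were tested. CYP7A1 and CYP8B1 of the classic pathway and CYP7B1, CYP39A1, CYP46A1 and CH25H had 0 counts in all 6 libraries. Below the filter were AKR1C4, with 8, 0 and 3 counts in the antisense libraries and 9, 0 and 0 in the vector control, and AKR1D1. AKR1D1 had 0, 3 and 4 counts in the antisense libraries and 3, 0 and 0 in the vector control. Of the 9 tested genes, 3 rose and 3 fell. HSD3B7 did not pass (-0.57, adjusted p = 0.055 by edgeR's quasi-likelihood test). SLC27A5, which activates bile acids for conjugation and so acts just before BAAT, had 9.33, 8.03 and 4.03 CPM in the antisense libraries and 2.43, 2.33 and 2.75 CPM in the vector control libraries. The groups did not overlap although antisense library 4 was lower than the other two, and it rose 2.84-fold (adjusted p = 0.00195 by edgeR's quasi-likelihood test), opposite in direction to BAAT. CYP27A1, the sterol 27-hydroxylase, and AMACR, a racemase of side chain shortening, rose by 0.65 and 0.64. SLC27A2, an acyl-CoA synthetase, ACOT8, a peroxisomal thioesterase, and HSD17B4, an enzyme of peroxisomal beta-oxidation, fell by 0.55, 0.45 and 0.29.

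Among bile acid transporters outside the 7, 5 of 12 tested genes rose and 4 fell. SLC10A1, the sodium-dependent uptake carrier of hepatocytes and the close relative of SLC10A2, had 0 counts in each antisense library and 21, 32 and 29 counts in the vector control libraries. It was at least 21.9-fold lower by the exact 95% counting interval, the vector control level being 27.5 times the floor of 3 counts over the antisense group, so the pair of related carriers was detected in opposite groups. ABCG2, an apical exporter, rose by 1.96 and SLCO1A2, an organic anion carrier, by 1.03. ATP8B1, a lipid flippase, and ABCC3, a basolateral exporter, rose by 0.97 and 0.30. ABCB1, the multidrug exporter, had 81.0, 82.2 and 84.7 CPM in the antisense libraries and 211, 209 and 194 CPM in the vector control libraries, a log2 fold change of -1.31 (SE 0.07). SLCO2B1 and ABCC4 fell by 0.57 and 0.40, and ABCC2 did not pass (-0.15, 95% interval -0.31 to 0.02).

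Of 7 tested genes of other bile acid sensors and FGF19 receptors, 4 rose and 0 fell. VDR, the vitamin D receptor, which also binds lithocholic acid, had 84.1, 85.1 and 78.9 CPM in the antisense libraries and 20.5, 21.7 and 21.4 CPM in the vector control libraries. The groups were far apart (log2 fold change 1.96, SE 0.07, adjusted p = 1.19e-07 by edgeR's quasi-likelihood test). NR1I2 (PXR) and NR1I3 (CAR) had log2 fold changes of 2.37 (SE 0.50) and 2.35 (SE 0.43), with vector control means of 0.0705 and 0.0767 CPM. Both passed the filter through the antisense libraries alone, so they could enter the test only as higher. MALRD1, whose mouse counterpart Diet1 affects the intestinal hormone that corresponds to FGF19, rose by 1.55 (SE 0.11). The membrane receptor gene GPBAR1 (TGR5) had 3, 9 and 9 counts in the antisense libraries and 11, 8 and 9 counts in the vector control libraries and was not tested.

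Of 12 tested genes on the list of regulators of the ileal carrier SLC10A2, 5 rose and 4 fell. HNF4G, a close relative of HNF4A, had 20.9, 18.2 and 21.4 CPM in the antisense libraries and 2.01, 2.65 and 1.68 CPM in the vector control libraries (log2 fold change 3.26, SE 0.16). CDX2, a factor of intestinal identity, and PPARA rose by 1.09 and 0.41. NR3C1, the glucocorticoid receptor, known to induce SLC10A2, fell by 1.69 (SE 0.13) and JUN by 0.43. HNF4A did not pass (0.13, 95% interval -0.03 to 0.28).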

How the data were processed

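PolyA RNA of 6 Caco-2 libraries was measured with a TruSeq Stranded mRNA kit after TRIzol extraction, per the labels' protocols. Tools listed without role or order in the submitters' processing notes are StringTie 1.3.4d, Bowtie2 2.3.4.1, HISAT2 2.1.0, Trimmomatic 0.38 and bcl2fastq, and the build listed is GRCh37. The deposited values used were read counts per gene and library, which the authors had not normalized. Another 12 value columns were not used. Column names gave the group but not the sample: their numbers are 2, 3 and 4, and the labels number replicates 1, 2 and 3. Within a group, pairs of libraries differed beyond sampling noise, with a chi-square over its degrees of freedom of 13.6 to 39.3.

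The test was the quasi-likelihood F-test of edgeR 4.0.16 (R 4.3.3) on counts scaled by TMM, after filterByExpr kept 14640 genes. P-values were adjusted by Benjamini-Hochberg over all tested genes, with a threshold of 0.05. The SE is the absolute log2 fold change over the square root of F. CPM used TMM-scaled library sizes. The fit was tested on simulated data. Intervals of log2 fold changes rest on this SE and so include the variation among libraries. Exact counting intervals and floors of 3 counts cover counting error only. DESeq2 1.42.0, other scalings, no filter, each library left out and a block on the column number were alternatives.

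The 7 genes and the lists were chosen with earlier results of these data known. Named list genes are up to 5 called members with the largest changes. Others in small groups, and single genes at 0 or not passing, were named after their values were seen. A few listed genes are counted in the lists but not reported singly here. Gene order and upstream sequence came from RefSeq tables of GRCh38.p14, another build than that of the counts. The order placed 99.7% of tested genes. Python 3.11.15, numpy 2.4.6, pandas 2.3.3 and matplotlib 3.10.9 were used.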

Additional observations from a re-analysis of the deposited data

How the results depend on the processing

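Of the 7 genes, 4 were called in the fit as reported, and 3 to 5 under the 11 alternatives. The 5 came without a filter and with DESeq2, where SLC10A2 was also called, and the 3 without antisense library 2 or vector control library 2, where BAAT was lost. NR1H4, NR0B2 and SLC51B were called under all 11, with log2 fold changes of 5.24 to 8.79, 2.70 to 3.47 and 1.73 to 1.83. BAAT was called under 9 (-0.89 to -0.55). SLC51A was called under none of the 6 that tested it (0.16 to 1.17), nor FGF19 under the 2 that did. Over all genes, 6661 to 8117 were called against 8054 as reported. The 6 lists had 22 to 29 genes higher and 15 to 18 lower. No result changed direction among those called as reported. EP300 lost its call under the DESeq2 size factors, library size only, no filter, the block and 5 of 6 fits without 1 library. GATA4 was lost under no filter, DESeq2, the block and all 6. CARM1, ABCC3, GATA6, NR5A2, CDH1, VIL1 and VWF were lost under the block and in some or all fits without 1 library, and KRT18 without a filter and in some of those fits. Causes were not tested.

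The replicate block on the column number called 6661 genes, 3355 higher and 3306 lower, with 4 of the 7 genes called. Deviations of same-numbered libraries correlated at 0.02, -0.07 and -0.07, and 1 of 3 libraries correlated best with its own number. These values gave no sign of pairing by number, but with 3 libraries per group they cannot exclude it. The planned ratio of SLC51A to SLC51B was not run, because SLC51A had 0 counts in antisense library 4. Depth limits SLC51A, SLC10A2 and FGF19, whose counts were at most 14 in a library.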

Other observations

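The 0 counts of SLC51A in antisense library 4 were not isolated. In the antisense group, 98 genes of the whole table had 0 counts in 1 library and at least 10 in both others, of which 16 were at 0 in library 4, 50 in library 2 and 32 in library 3. In the vector control there were 85 such genes, 17, 39 and 29 in libraries 2, 3 and 4. FGF19, also at 0 in antisense library 4, had 6 counts in antisense library 3 and so was not among the 98 genes. The cause was not tested.

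Further genes described as FXR targets were detected at low counts in the antisense libraries alone. APOC2, an activator of lipoprotein lipase, had 9, 25 and 28 counts there, CYP4F2, a fatty acid hydroxylase, 13, 21 and 8, and PDK4, a kinase that limits pyruvate oxidation, 5, 14 and 2, against 0 in each vector control library. The coactivator gene PPARGC1A had 3, 3 and 6 counts in the antisense libraries and 0 in the vector control libraries. UGT2B4 and FETUB, also on the target list, had counts in both groups (5, 0 and 0 against 0, 0 and 2, and 10, 0 and 2 against 10, 0 and 6). None of these 6 genes passed the filter. ABCB11 of the same target list, also under the filter, went the other way, with 0 counts in the antisense libraries and 3, 0 and 3 in the vector control. How many genes of the whole table were detected in the antisense libraries alone was not counted, so these counts have no background share.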
